A study of Mus musculus with 10 samples.

Results

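Pitx1, Lhx6, Lhx8, Pax9, Barx1, Osr1, Osr2 and Nkx2-3 encode transcription factors that pattern the oral side and the tooth-forming mesenchyme of the jaw, and the level of each was followed in mandibular prominences (MNPs) of mouse embryos at embryonic day (E) 10.5. The 8 genes were taken by name from 33641 gene symbols in the count tables, of which 23652 had at least 1 count in any library. All 8 passed the filter on low counts that left 17477 genes for testing. The MNPs are the buds of the first arch from which the lower jaw and much of the tongue grow. Polyadenylated RNA was sequenced from 3 genotypes on a CD1 background: wild-type (WT), Hand2 f/f; Wnt1-Cre+ (Hand2 cKO), which lacks the distal arch factor Hand2, and the double mutant with Gli2 f/f and Gli3 f/f alleles and Wnt1-Cre+ (Gli2/3 cKO), which lacks both main effectors of Hedgehog signalling. Wnt1-Cre acts in the neural crest cell (NCC) lineage, which makes most of the mesenchyme, and not in epithelium, mesoderm, vessels or blood, so the floxed alleles stay intact there. The sources used here do not give whether WT embryos carried floxed alleles or Cre, nor how many embryos went into a library. Of 10 labelled samples, 6 were analysed, numbered by the labels as WT 3, WT 4, Hand2 cKO 1, 2 and 3, and Gli2/3 cKO 3, and 4 were not analysed here. Because nothing states that the libraries of a group came from separate litters, p-values measure only the spread between these samples.

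The oral-aboral axis of the first arch runs from the surface that faces the mouth, where teeth will form, to the outer surface. FGF8 from the oral ectoderm induces Lhx6 and Lhx8 in the mesenchyme beneath it, Bmp4 from the distal midline opposes FGF8 and restricts Pax9 and Barx1, and endothelin and Hand factors mark the aboral and distal side. Barx1 and Pax9 are known for their part in molar and early tooth development, Pitx1 for the proximal jaw, Osr2 for confining teeth to a single row, Osr1 for tongue and palate mesenchyme, and Nkx2-3 for pharyngeal endoderm and the floor of the mouth.

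Libraries held 21420197 (WT 4) to 53326697 (Hand2 cKO 1) estimated counts, and the libraries with the fewest were WT 4 and Gli2/3 cKO 3. In Hand2 cKO 2, longer transcripts had relatively fewer counts (log2 counts fell by 0.226 for each doubling in length, where the other libraries had slopes of -0.0876 to 0.12). Haemoglobin genes took 0.264% of counts in WT 3 but 1.26% in WT 4. Levels are given as CPM (counts scaled by library size) for 1 gene across libraries, and as TPM (counts scaled by transcript length and then by library) where different genes are set against each other. Hand2 stood at 175 and 209 CPM in WT, at 144 CPM in Gli2/3 cKO, and at 13.4 to 25.5 CPM in the Hand2 cKO libraries. In Gli2/3 cKO, Gli2 was at 58.3 CPM against 122 and 105 CPM in WT, and Gli3 at 80.2 CPM against 176 and 145 CPM, so that both targeted genes were lower but not absent in the Gli2/3 cKO library. All 9 neural crest mesenchyme markers were detected, with a summed level of 1468 to 1750 CPM over the 6 libraries, as were all 11 epithelial markers, with 356 to 422 CPM. The tissue is mixed, and a lower level in it cannot be told apart as fewer cells of a type or less RNA per cell.

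On the per-length scale the 8 factors spanned a wide range. Barx1 (220 ± 74.9 TPM in WT; mean ± SD, n = 2 here and for each WT value) and Pitx1 (210.3 ± 58.2 TPM) were the most abundant, Lhx8 followed (121 ± 5.54 TPM), and Lhx6 (49.3 ± 4.28 TPM) and Osr1 (33.2 ± 13.8 TPM) were intermediate. Osr2 (9.21 ± 8.39 TPM), Nkx2-3 (6.35 ± 0.137 TPM) and Pax9 (4.00 ± 2.76 TPM) were low. Barx1 stood at the 96.0th percentile of the tested genes by its WT level, and Pax9 at the 35.8th. Lhx6 held the fourth and Osr1 the fifth place in all 6 libraries, and Barx1 was first in 5 of 6. The order within the upper 3 (Barx1, Pitx1, Lhx8) and within the lower 3 (Osr2, Nkx2-3, Pax9) changed between libraries. In WT the means of Barx1 and Pitx1, and those of Osr2, Nkx2-3 and Pax9, did not differ beyond their SD.

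**Figure D1:**
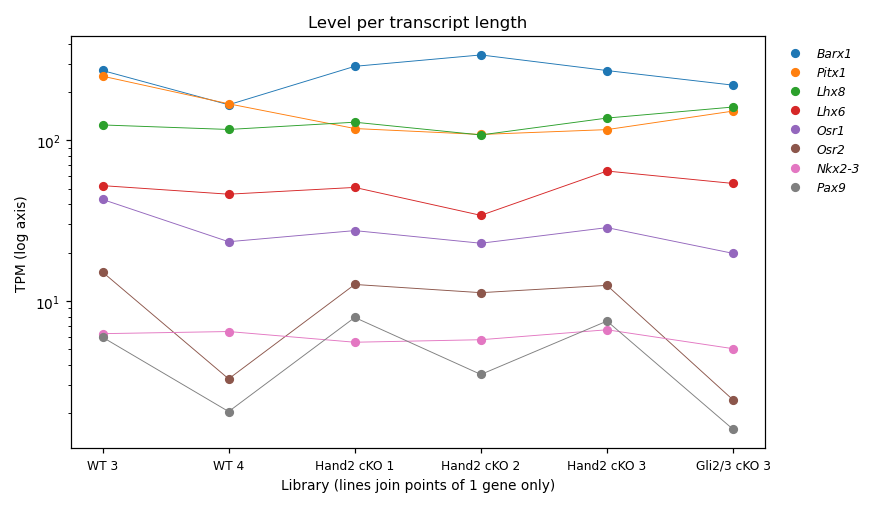
Level per transcript length (TPM, log axis) of the 8 factors in each of the 6 libraries, 1 point per library, with lines that only join the points of a gene. Barx1, Pitx1 and Lhx8 stay above 100 TPM in every library, while Pax9 and Osr2 are lowest in WT 4 and Gli2/3 cKO 3.

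The 2 WT libraries themselves divided the factors into stable and variable ones. WT 3 exceeded WT 4 by 4.27-fold for Osr2, 2.48-fold for Pax9, 1.90-fold for Osr1, 1.51-fold for Barx1 and 1.31-fold for Pitx1 in CPM, whereas the ratio was 1.06 for Lhx8, 1.02 for Lhx6 and 0.895 for Nkx2-3. Of 12257 genes past a minimum mean log2 CPM of 1, 0.579% differed between the WT libraries by as much as Osr2, 1.33% by as much as Pax9, 2.34% by as much as Osr1 and 92.3% by as much as Lhx6. The summed erythroid markers (6 of 6 detected) were 2541 CPM in WT 3 and 9676 CPM in WT 4, against 3541 to 7952 CPM in Hand2 cKO, with 3331 CPM in Gli2/3 cKO. The neural crest mesenchyme sums of the WT libraries differed by 1.12-fold and the epithelial sums by 0.977-fold. The part of dissection, stage or blood content in the spread of Osr2, Pax9 and Osr1 was not tested.

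**Figure D2:**
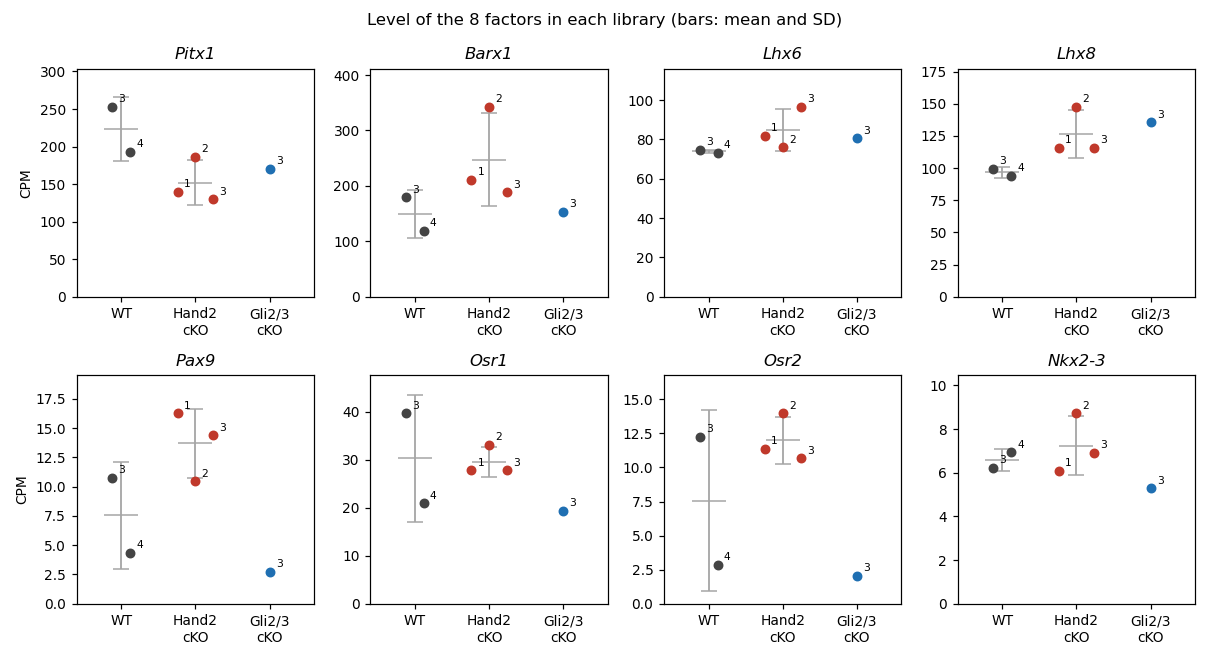
CPM (linear axes from 0) of each factor in the 6 libraries, each point carrying its replicate number and grey bars giving group means with their SD (WT, n = 2; Hand2 cKO, n = 3). Gli2/3 cKO has 1 library, and the WT points of Osr2, at 12.3 and 2.87 CPM, enclose those of Hand2 cKO 1 and 3 but not that of Hand2 cKO 2, at 14.0 CPM.

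Hand2 cKO was compared with WT to ask whether oral and tooth-field factors depend on Hand2 in NCCs. Of the 8, 0 were called by the quasi-likelihood test of edgeR, which required a p under 0.05 after Benjamini-Hochberg adjustment with a fold change exceeding 1.5, and 1, Pitx1, had an unadjusted p under 0.05. Over all genes 0.0114% were called, and 6.47% had an unadjusted p under 0.05. DESeq2 called 0 of 8 as well, with 1.06% of genes called. The fitted log2 fold changes lay above 0 for 6 factors and below 0 for 2, with a median of 0.29 against -0.00012 over all genes. The libraries of both genotypes did not overlap in CPM for 4 factors (Lhx6, Lhx8 and Barx1 higher, Pitx1 lower), where 31% of genes do not overlap. In TPM, which divides counts by transcript length and then by the library's total of these values, this held for Pitx1 alone. There, 31.4% of genes do not overlap. Of these genes 963 lay higher and 4507 lower in Hand2 cKO in TPM, against 2681 higher and 2740 lower in CPM. Barx1 has 1 listed transcript, so its CPM and TPM differ between libraries by the library scaling alone.

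Pitx1 (chromosome 13, 55825051 to 55836192, minus strand, mm10), a homeobox gene of the proximal jaw and hindlimb, was at 253 and 193 CPM in WT against 140.1, 186 and 130 CPM in Hand2 cKO. All Hand2 cKO libraries lay below both WT libraries, and Hand2 cKO 2 came close to WT 4. The log2 fold change was -0.55 ± 0.22 (± SE, as throughout for log2 fold changes), and its 95% interval reached from -1.09 to -0.01, with an adjusted p of 0.723 by edgeR (0.301 to 0.953 over the alternatives). On the per-length scale Pitx1 was at 251 and 169 TPM in WT against 119, 109 and 117 TPM in Hand2 cKO. On that scale most genes that do not overlap lay lower in Hand2 cKO (4507 lower, 963 higher), so the wider gap is not particular to Pitx1. Without Hand2 cKO 2, in which the length trend was seen, the log2 fold change was -0.74 with an adjusted p of 0.301 by edgeR. DESeq2 called Pitx1 lower in that setting (-0.73 ± 0.16, adjusted p = 0.000385). This DESeq2 fit was added after seeing the data, and the share of all genes it called is not given here. By edgeR 39 genes were called without Hand2 cKO 2, against 2 with every library.

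Lhx6 (chromosome 2, 36081953 to 36105408, minus strand) and Lhx8 (chromosome 3, 154306294 to 154330659, minus strand) encode LIM homeodomain factors that act together in oral mesenchyme downstream of FGF8. Lhx6 was at 74.6 and 73.3 CPM in WT against 81.9, 76.0 and 96.6 CPM in Hand2 cKO, and Lhx8 at 99.6 and 93.8 CPM against 116, 148 and 116 CPM. Every Hand2 cKO library exceeded both WT libraries for each gene, narrowly so for Lhx6. The log2 fold changes were 0.20 ± 0.16 for Lhx6 (95% interval from -0.19 to 0.59, adjusted p = 0.732 by edgeR) and 0.39 ± 0.17 for Lhx8 (from -0.04 to 0.81, adjusted p = 0.723 by edgeR). In TPM, Hand2 cKO 2 was the lowest of all libraries for both, at 34.2 TPM for Lhx6 and 108 TPM for Lhx8, so that this library stood above WT in CPM and below it in TPM.

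Barx1 (chromosome 13, 48662998 to 48666507, plus strand), a homeobox gene of molar-forming and proximal mesenchyme, was at 179 and 119 CPM in WT against 211, 343 and 189 CPM in Hand2 cKO. The groups did not overlap, yet Hand2 cKO 3 and WT 3 differed by less than the WT libraries did. Its log2 fold change was 0.73 ± 0.33 (95% interval from -0.06 to 1.52, adjusted p = 0.723 by edgeR, 0.434 to 0.953 over the alternatives), and it was 0.41 without Hand2 cKO 2. In TPM, Hand2 cKO 3 (272.6) and WT 3 (272.8) were level.

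Pax9 (chromosome 12, 56691767 to 56712822, plus strand), a paired-box gene needed for tooth and palate development, was at 10.8 and 4.33 CPM in WT against 16.2, 10.5 and 14.4 CPM in Hand2 cKO. Hand2 cKO 2 overlapped WT 3, and WT 4 lay apart below. The log2 fold change was 0.85 ± 0.42 (95% interval from -0.16 to 1.86, adjusted p = 0.723 by edgeR), 1.66 without WT 3 and 0.35 without WT 4. Osr2 (chromosome 15, 35296098 to 35303305, plus strand), a zinc-finger gene that limits the width of the tooth field, was at 12.3 and 2.87 CPM in WT against 11.4, 14.0 and 10.7 CPM in Hand2 cKO. The Hand2 cKO libraries were close together and WT 3 fell among them. Its log2 fold change of 0.65 ± 0.56 (95% interval from -0.71 to 2.01, adjusted p = 0.741 by edgeR) became 2.06 without WT 3 and -0.03 without WT 4. By DESeq2 the log2 fold changes of Osr2 and Pax9 were 2.06 and 1.66 without WT 3, and -0.02 and 0.36 without WT 4. These values hang on which WT library is kept.

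Osr1 (chromosome 12, 9570116 to 9581500, plus strand), the paralog of Osr2, was at 39.6 and 20.9 CPM in WT against 27.8, 33.1 and 27.8 CPM in Hand2 cKO. All 3 Hand2 cKO values fell between the WT values. Nkx2-3 (chromosome 19, 43612325 to 43615892, plus strand), an NK2-class homeobox gene, was at 6.21 and 6.94 CPM in WT against 6.09, 8.71 and 6.91 CPM in Hand2 cKO, again overlapping. The log2 fold changes were -0.04 ± 0.28 for Osr1 (95% interval from -0.73 to 0.65) and 0.14 ± 0.23 for Nkx2-3 (from -0.42 to 0.69). Without WT 3, the value for Osr1 turned to 0.50.

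**Figure D3:**
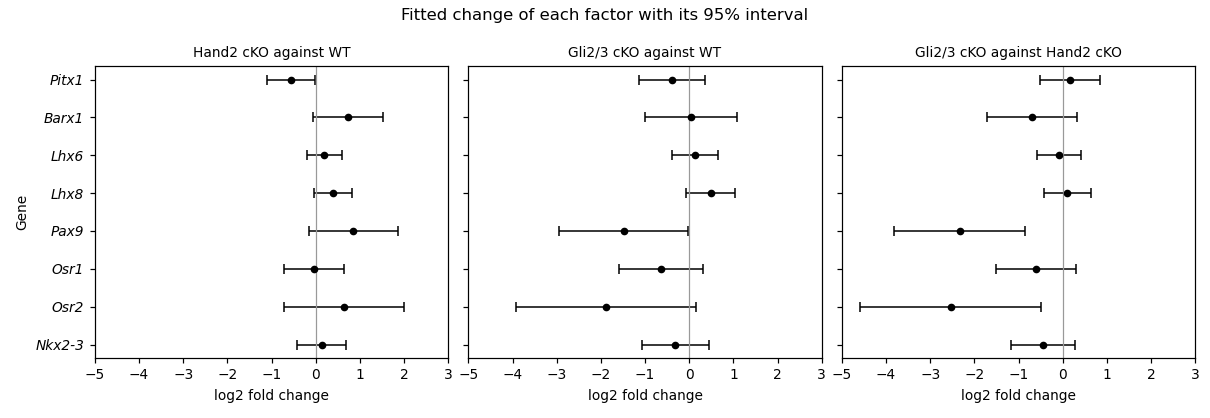
Log2 fold change of each factor in the 3 comparisons, as points with 95% intervals from the edgeR fit over 6 libraries (axis from -5 to 3, vertical line at 0). Intervals are widest for Osr2 and Pax9; those that leave out 0 belong to Pitx1 in Hand2 cKO against WT, to Pax9 in Gli2/3 cKO against WT, and to Pax9 and Osr2 in Gli2/3 cKO against Hand2 cKO.

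Gli2/3 cKO was compared with WT to ask whether the same factors depend on Gli activity in NCCs. The comparison uses the WT libraries of the previous one and a single mutant library, which adds no estimate of spread and is assumed to vary like the other groups. No factor was called by edgeR (0 of 8, with 0.0114% of genes called), and 1, Pax9, had an unadjusted p under 0.05 (4.59% of genes). DESeq2 called 0 of 8, with 0.834% of genes called. The library lay outside the range of WT for 7 of 8 factors (all but Barx1), where 70.2% of genes do so. The fitted changes lay above 0 for 3 factors and below 0 for 5, with a median of -0.35 against 0.0012 over all genes.

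The tooth-field genes Pax9 and Osr2 had the largest differences. Pax9 was at 2.72 CPM in Gli2/3 cKO, 36.0% of the WT mean of 7.54 ± 4.54 CPM, and below both WT libraries. Its log2 fold change was -1.48 ± 0.60 (95% interval from -2.95 to -0.02, adjusted p = 1 by edgeR, 0.437 to 1 over the alternatives), -0.67 without WT 3 and -1.98 without WT 4. Osr2 was at 2.07 CPM, 27.3% of the WT mean of 7.57 ± 6.65 CPM, and lay near WT 4 and far below WT 3. Its log2 fold change was -1.89 ± 0.84 (from -3.92 to 0.15, adjusted p = 1 by edgeR), -0.47 without WT 3 and -2.57 without WT 4. By DESeq2, Osr2 had -0.49 without WT 3 and -2.57 without WT 4, and Pax9 had -0.69 and -1.98. The CPM levels rest on 54 estimated counts for Osr2 and 71.0 for Pax9 in Gli2/3 cKO, and on 65 and 98.3 in WT 4, against 630 and 552 in WT 3. All lie well above 3 counts, which was set as the floor.

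Osr1, at 19.4 CPM, was also the lowest of all libraries, just below WT 4. Its log2 fold change was -0.65 ± 0.39 (95% interval from -1.60 to 0.31) and -0.11 without WT 3. Nkx2-3, at 5.28 CPM, was lowest in this library too, with a log2 fold change of -0.32 ± 0.31 (from -1.08 to 0.45). Summed markers of pharyngeal endoderm, a site of Pax9 and Nkx2-3 expression, had their lowest value in Gli2/3 cKO, with 19.7 CPM against 28.2 and 28.0 CPM in WT and 25.5 to 37.1 CPM in Hand2 cKO (6 of 6 markers detected). Of these markers Foxe1 made up most of the difference, at 7.23 CPM in Gli2/3 cKO against 13.8 and 13.1 CPM in WT, whereas Sox17 and Foxa2 lay within the range of WT. The part of endoderm content in the lower Pax9 and Nkx2-3 was not tested.

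The differences of the more abundant oral factors were smaller. Pitx1 was at 171 CPM in Gli2/3 cKO, below both WT libraries (log2 fold change -0.39 ± 0.31, 95% interval from -1.13 to 0.36). Barx1, at 153 CPM, fell between the WT libraries (0.04 ± 0.43, from -1.0 to 1.08). Lhx6, at 80.4 CPM, and Lhx8, at 136 CPM, exceeded both WT libraries, with log2 fold changes of 0.12 ± 0.21 (from -0.40 to 0.64) and 0.49 ± 0.23 (from -0.07 to 1.04, adjusted p = 1 by edgeR). Lhx6 was the only one of the 8 factors whose interval leaves out a 2-fold change in both directions.

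The mutants were then compared with each other, which leaves the WT libraries out of the difference but shares the mutant libraries with both comparisons above. Pax9 was 5.04-fold and Osr2 5.81-fold lower in Gli2/3 cKO than the mean of Hand2 cKO. For each gene the Gli2/3 cKO library (2.72 CPM for Pax9, 2.07 CPM for Osr2) lay far below all 3 Hand2 cKO libraries, whose lowest values were 10.5 and 10.7 CPM. The library WT 4, at 4.33 CPM for Pax9 and 2.87 CPM for Osr2, lay below them too. Every fit keeps Gli2/3 cKO 3, the only library of its group, so fits without another library cannot test how far it varies. The log2 fold change was -2.33 ± 0.61 for Pax9 (95% interval from -3.81 to -0.86, adjusted p = 0.672 by edgeR) and -2.54 ± 0.84 for Osr2 (from -4.58 to -0.49, adjusted p = 0.818 by edgeR). By edgeR 0 of 8 factors were called and these 2 had an unadjusted p under 0.05, where 0.0343% and 5.48% of genes did. DESeq2 called both lower (adjusted p = 0.00464 for Pax9 and 0.0333 for Osr2), 2 of 8 where 0.886% of genes were called. In the 5 DESeq2 fits that left out a WT or Hand2 cKO library, Pax9 had log2 fold changes from -2.50 to -2.21. Those of Osr2 ran from -2.64 to -2.42, against -2.55 by DESeq2 with every library kept. Osr2 was not called by DESeq2 without Hand2 cKO 1 (-2.60 ± 0.72, adjusted p = 0.0640) or without Hand2 cKO 2 (-2.42 ± 1.15, adjusted p = 0.630). These fits were added after seeing the data, and the share of all genes they called is not given here.

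Barx1 was 1.62-fold, Osr1 1.52-fold and Nkx2-3 1.37-fold lower in Gli2/3 cKO than the mean of Hand2 cKO, each below all 3 libraries. Their 95% intervals included 0, with log2 fold changes of -0.69 ± 0.42, -0.61 ± 0.37 and -0.45 ± 0.30. Together with Pax9 and Osr2 this made 5 factors whose groups did not overlap in CPM, where 55.9% of genes do not. Pitx1, Lhx6 and Lhx8 overlapped, with log2 fold changes of 0.17 ± 0.28, -0.08 ± 0.20 and 0.10 ± 0.22. In TPM, Pitx1 (152 TPM against 109 to 119 TPM) and Lhx8 (162 TPM against 108 to 138 TPM) lay above all 3 Hand2 cKO libraries as well, so that 7 factors did not overlap, where 55.1% of genes do not. Of these genes 7072 lay higher and 2510 lower in Gli2/3 cKO in TPM, against 5016 and 4746 in CPM. Pitx1 and Lhx8 thus differed in TPM in the direction of most such genes. The median of the 8 was -0.53 against -0.02 over all genes.

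Over the 6 libraries Osr2 varied 6.76-fold between the highest and the lowest library and Pax9 5.98-fold, whereas Lhx6 varied 1.32-fold. To find genes with a like pattern, log2 CPM was centred on each gene's mean and the root mean square difference taken over the 6 libraries for 11567 other genes. Bmper, an extracellular modulator of BMP signalling, came nearest to Pax9 (0.150), at 4.68 and 1.59 CPM in WT, at 6.98, 4.96 and 5.37 CPM in Hand2 cKO, with 1.30 CPM in Gli2/3 cKO. Like Pax9 it was low in WT 4 and Gli2/3 cKO. Gjb2, a gap junction gene, was next (0.310), and Osr2 was the nearest of the other factors, with 5 genes nearer. For Osr2, Ttll11 (0.278) and Bmper (0.322) came first and Pax9 (0.379) followed.

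The other factors, whose levels varied less, had nearer neighbours. The smallest differences were 0.029 for Nkx2-3 (Bdh1), 0.030 for Lhx8 (Fam204a), 0.037 for Lhx6 (Rdh11), 0.065 for Barx1 (Uchl1), 0.107 for Pitx1 (Smpdl3a) and 0.125 for Osr1 (Rps6ka4). Lhx6 and Lhx8 were each other's nearest factor (0.242), with 5200 genes nearer to Lhx6 and 3847 nearer to Lhx8. With 6 libraries such likeness is a description only.

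Lhx6 had the most listed transcripts of the 8 factors, with 9. Of these, 4 start between 36105255 and 36105408 on chromosome 2, and 2 start at 36104060, 1348 bases downstream of the first. Of the upstream group, the transcript that starts at 36105271 took 5.48% to 26.3% of the Lhx6 estimated counts over the libraries. The bases directly before its start are not shown. The 250 bases before 36105408, the outermost upstream start, and before the downstream start are shown because the balance between the starts varied between libraries. They were taken from RefSeq (GRCm38.p6, minus strand, 5′ to 3′), with any CANNTG, the E-box letters that Hand2 and other basic helix-loop-helix factors can bind, in capitals.
Lhx6 upstream start, chr2:36105409-36105658: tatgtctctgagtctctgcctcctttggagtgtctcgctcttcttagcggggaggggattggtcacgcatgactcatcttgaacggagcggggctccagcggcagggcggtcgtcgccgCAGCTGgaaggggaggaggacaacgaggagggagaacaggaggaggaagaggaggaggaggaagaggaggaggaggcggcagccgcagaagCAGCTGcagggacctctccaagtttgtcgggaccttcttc
Lhx6 downstream start, chr2:36104061-36104310: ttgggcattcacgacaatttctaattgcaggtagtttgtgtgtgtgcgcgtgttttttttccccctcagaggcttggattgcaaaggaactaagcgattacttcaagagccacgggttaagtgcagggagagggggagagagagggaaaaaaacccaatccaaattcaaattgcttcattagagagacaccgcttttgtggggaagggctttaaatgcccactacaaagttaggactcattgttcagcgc
The 300-base window of the upstream start, which runs 250 bases before to 50 after it, was 63.3% G or C and held CANNTG at positions -131 and -40, where 0 is the start. That of the downstream start was 48.7% G or C and held none. Of 32851 RefSeq windows of this length, 72.3% held CANNTG on either strand, and their median share of G or C was 52.7%.

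The downstream start took 36.8% and 52.8% of the Lhx6 estimated counts in WT, 60.2%, 86.9% and 44.2% in Hand2 cKO, with 61.3% for Gli2/3 cKO. The upstream starts took 60.9% and 46.2% in WT, 38.3%, 12.3% and 53.4% in Hand2 cKO, and 37.2% of those of Gli2/3 cKO. Hand2 cKO and WT overlapped in both shares, and Gli2/3 cKO lay outside WT but within Hand2 cKO. The most extreme share belonged to Hand2 cKO 2, and the part of its length trend in that share was not tested. Transcripts of the 2 starts share most of their exons, so their split was estimated by the authors' program and is less certain than the total of the gene.

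**Figure D4:**
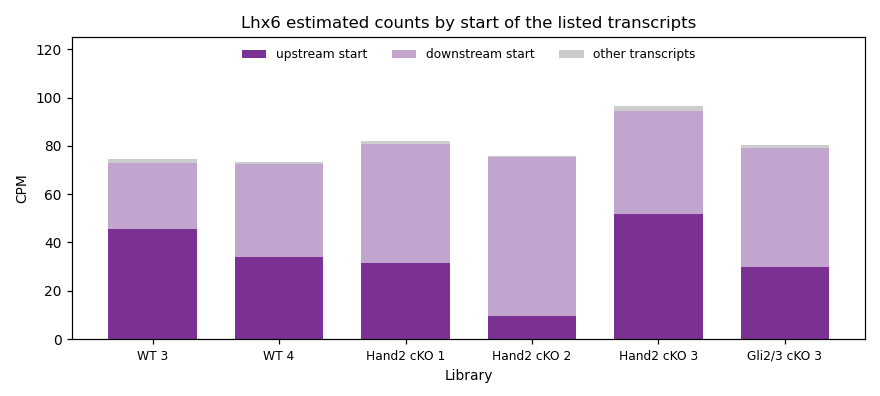
Lhx6 CPM in each library (linear axis from 0), stacked by the start of the listed transcripts: upstream starts, downstream start and all other transcripts. The total stays between 73.3 and 96.6 CPM, while the upstream part ranges from 9.35 CPM in Hand2 cKO 2 to 51.6 CPM in Hand2 cKO 3.

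The promoter of Pax9 is shown because this factor differed most clearly between the mutants (RefSeq, GRCm38.p6, plus strand, 5′ to 3′, 250 bases before the start, CANNTG in capitals).
Pax9, chr12:56695221-56695470: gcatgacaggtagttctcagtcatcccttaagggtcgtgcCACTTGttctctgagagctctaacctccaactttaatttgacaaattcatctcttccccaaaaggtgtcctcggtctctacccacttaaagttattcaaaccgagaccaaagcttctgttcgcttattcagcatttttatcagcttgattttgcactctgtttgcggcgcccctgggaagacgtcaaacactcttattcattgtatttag
Its 300-base window was 47.0% G or C and held CANNTG at positions -210 and 5, the latter past the printed bases. The main protein-coding transcript of Pax9 in GENCODE, which starts at 56695639, took 65.1% of its estimated counts in WT 3 and all of them in WT 4, 72.1%, 95.9% and 85.9% in Hand2 cKO, with 44.2% for Gli2/3 cKO, with a retained-intron transcript at 26.1% in Gli2/3 cKO against 0 to 10.8% elsewhere. At the low counts of WT 4 and Gli2/3 cKO such splits are uncertain. RefSeq windows were at hand for 5 of the 8 factors, 7 windows in all (Lhx6, Lhx8, Pax9, Barx1 and Nkx2-3). Barx1 had 84.7% G or C and 50 CpG dinucleotides, where the median over all windows was 7 CpG. Searched on both strands, CATCTG, the E-box form often bound by Hand2 and Twist factors and itself a form of CANNTG, GACCACCCA, the Gli consensus, and TAATTA, a homeodomain core, were absent from the 7 windows. They were held by 17.2%, 0.253% and 5.29% of all windows.

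Upstream signals and responses of the oral-aboral axis were read from 8 gene lists, some of which share genes. Of 12 epithelial signals of the jaw, among them Fgf8, Bmp4, Shh and Edn1, 0 were called in any comparison by edgeR or DESeq2. Fgf8 was at 13.7 and 14.9 CPM in WT, at 13.7, 26.5 and 15.1 CPM in Hand2 cKO, with 17.6 CPM in Gli2/3 cKO. Bmp4 was at 24.0 and 35.9 CPM in WT, at 23.4, 25.7 and 25.2 CPM in Hand2 cKO, with 26.6 CPM in Gli2/3 cKO. Both overlapped WT in Hand2 cKO. Shh, the Hedgehog ligand of the oral epithelium, was at 10.5 and 10.3 CPM in WT but at 18.3 CPM in Gli2/3 cKO, with a log2 fold change of 0.82 ± 0.23 that was not called (adjusted p = 0.853 by edgeR), and Bmp2 had -1.65 ± 0.46 there (adjusted p = 0.853 by edgeR).

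Of 10 FGF response genes and 8 BMP response genes, 0 were called in any comparison by either tool. In Hand2 cKO against WT the FGF list had a median log2 fold change of 0.13 (7 above 0, 3 below) and the BMP list -0.19 (3 above, 5 below), and in Gli2/3 cKO against WT the medians were 0.18 and -0.17. Spry2, an FGF feedback inhibitor, had 0.52 ± 0.14 in Hand2 cKO against WT (adjusted p = 0.70 by edgeR). The 16 other tooth and oral field genes had medians of -0.02 in Hand2 cKO and 0.03 in Gli2/3 cKO against WT, with 0 called. Runx2, the osteoblast regulator and a gene of this list, was at 8.16 and 5.13 CPM in WT, at 9.80, 6.52 and 10.3 CPM in Hand2 cKO, with 2.22 CPM in Gli2/3 cKO, lowest in the latter as Pax9 and Osr2 were. DESeq2 called Runx2 lower in Gli2/3 cKO than in Hand2 cKO (adjusted p = 0.00397), and edgeR did not (-2.0 ± 0.45, adjusted p = 0.569). In that comparison the 16 genes of the list had a median of 0.11, with 9 above 0 and 7 below, so Runx2 does not stand for the list.

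The members of these lists that edgeR called stood in the Hedgehog response list and the aboral and distal list. Of 8 Hedgehog response genes all had a log2 fold change below 0 in Gli2/3 cKO against WT (median -1.61), with 2 called lower by edgeR, the forkhead genes Foxf1 (-3.62 ± 0.22, adjusted p = 0.0413) and Foxf2 (-3.16 ± 0.21, adjusted p = 0.0413), and 4 by DESeq2 (Gli1 and Foxl1 in addition). Of 10 aboral and distal arch genes edgeR called 1 and DESeq2 called 5 lower in Hand2 cKO than in WT, with a median of -0.59. Gsc, a homeobox gene of the aboral side, had -2.90 ± 0.28 (adjusted p = 0.0784 by edgeR and 1.91e-16 by DESeq2), and Hand1, the paralog of Hand2, had -4.11 ± 0.32 (adjusted p = 0.0580 by edgeR and 1.10e-30 by DESeq2). In the same comparison the 8 oral factors had 0 calls by either tool and fitted log2 fold changes from -0.55 to 0.85.

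Of 17 relatives of the factors from the same gene families, 13 were tested and 0 called by edgeR. DESeq2 called the LIM homeodomain gene Isl2 lower in Gli2/3 cKO against WT (-2.07 ± 0.35 and adjusted p = 0.437 by edgeR, adjusted p = 9.65e-05 by DESeq2). Of 9 LIM cofactors, 0 were called by edgeR, and DESeq2 called Lmo3, a LIM-only gene, higher in Hand2 cKO against WT, from 0.584 and 0.398 CPM in WT to 2.25, 2.06 and 1.90 CPM (2.04 ± 0.34, adjusted p = 0.233 by edgeR and 0.00279 by DESeq2).

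**Figure D5:**
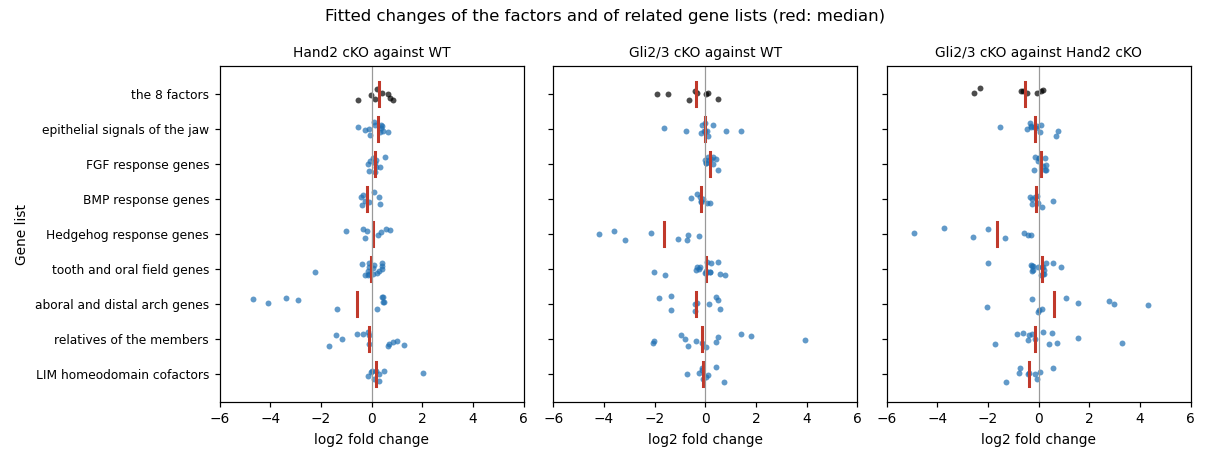
Log2 fold changes (axis from -6 to 6) of the 8 factors and of 8 related gene lists in the 3 comparisons, 1 point per gene with small vertical jitter and a red bar at each list's median. The Hedgehog response list has a median of -1.61 in Gli2/3 cKO against WT, and the 8 factors have medians of 0.29, -0.35 and -0.53.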

How the data were processed

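Polyadenylated RNA of E10.5 MNPs was analysed in 6 libraries, grouped by the genotype in the labels, which state mm10 and DESeq2 in the submitters' processing notes. The deposited files hold estimated counts (expected counts) per transcript, which the authors made in Strand NGS. The sources used here give neither its version nor its annotation, and labels and study name different sequencers. Whole counts had been planned for, and since 47.7% to 56.8% of values per library were not whole (tolerance 0.01), the transcripts of each symbol were summed and rounded. Coordinates are those of GENCODE M21, and 103635 of 105129 transcripts matched it.

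The 6 libraries entered 1 edgeR 4.0.16 quasi-likelihood fit (R 4.3.3) with genotype as the only term, filterByExpr and trimmed mean of M values scaling, with 3 residual degrees of freedom. Calls needed a fold above 1.5 and, after Benjamini-Hochberg adjustment over 17477 genes, a p below 0.05. Intervals are at 95%. TPM came from counts over transcript length, scaled by each library's total of these values and not by trimmed mean of M values. DESeq2 1.42.0 and 12 other alternatives were run, and DESeq2 fits without 1 library each were added after seeing the data. Scripts were tested on simulated data. The ratio of the WT libraries used a pseudocount of 0.5 CPM only for the share of genes that differ as much. The factors and lists were chosen with earlier results of these data known. Named genes were the 8 factors, the targeted genes, up to 3 genes of the smallest p and every called gene per list, and the 2 genes most like each factor, of which the text gives a selection; others that the rules select are not reported here.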

Additional observations from a re-analysis of the deposited data

How the results depend on the processing

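No paired analysis was possible because the analysed groups share at most 1 replicate number. Of 312 values of the 8 factors under 13 alternatives, 303 kept their direction and side of the threshold, 7 reversed and 2 passed it only by DESeq2 (Pax9 and Osr2 between the mutants). For values that reversed when a library was left out, the range over those fits was -0.42 to 0.50 for Osr1, -0.032 to 2.06 for Osr2 and -0.028 to 0.25 for Nkx2-3 in Hand2 cKO against WT, -0.23 to 0.37 for Barx1 in Gli2/3 cKO against WT, and -0.15 to 0.027 for Lhx6 between the mutants. Outside the factors it was -0.19 to 0.069 for Gli2, -0.36 to 0.036 for Gli3 and -0.71 to 0.050 for Msx2 in Hand2 cKO against WT, and -0.53 to 0.080 for Id1 between the mutants.

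The number of factors called was 0 by edgeR under every alternative of edgeR. By DESeq2 it was 2 between the mutants, 2 without WT 3, WT 4 or Hand2 cKO 3 and 1 without Hand2 cKO 1 or Hand2 cKO 2. By DESeq2 it was also 1 in Hand2 cKO against WT without Hand2 cKO 2 (Pitx1). Fits without WT 3 or WT 4 keep 1 WT library, so their DESeq2 calls against WT are not counted here. The share of all genes called is not given for the DESeq2 fits without 1 library. The genes called over all genes, 2 for Hand2 cKO and 2 for Gli2/3 cKO against WT and 6 between the mutants, were 180, 130 and 142 by DESeq2, 45, 21 and 39 with no filter on low counts, and 48, 10 and 34 with the length trend removed. Hand2 cKO against WT gave 1 with upper-quartile scaling and 10 with protein-coding genes only. Gli2/3 cKO against WT gave 0 with a robust prior and 57 with only the groups compared, which gave 20 between the mutants. With 1 library left out the counts ran from 1 to 39, 0 to 14 and 2 to 23. The cause of these shifts was not tested.

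The lone Gli2/3 cKO library, the spread between WT 3 and WT 4 and 54 to 98.3 estimated counts for the lowest Osr2 and Pax9 values limit what can be seen of these genes.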
